A study of Mus musculus with 4 samples.

Results

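The 9 genes described here are Armcx1 to Armcx6, Gprasp1, Gprasp2 and Bhlhb9, which lie between 134685650 and 135891081 on the mouse X chromosome, and they were taken by name from the 966 protein-coding genes annotated on that chromosome. They were selected on the measured compartment score of a single 250 kb bin, chrX:135750001-136000000, which was much lower on the cas chromosome in the knockout matrix, so the cas differences of that bin are given below as a description and support nothing. Their contacts were read from Hi-C of female tail tip fibroblasts (TTF), skin-derived cells grown from the tail, of mus/cas hybrid mice, whose mus and cas X chromosomes differ enough in sequence for reads to be assigned to one or the other. The genotypes were Sirt7-/- (KO, 2 replicates), which lacks the nuclear NAD-dependent deacylase SIRT7, and wild type (WT, 2 replicates). Neither the age of the animals nor whether replicates came from separate animals is given in the sources used here, and the labels do not state which X chromosome was inactive. The design text of the series names an Xist-binding assay, but Hi-C is what the sample labels and matrix headers describe, and the values were read as such.

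The replicates of each genotype were combined by the authors before deposit, so there was 1 matrix for each genotype, allele and bin size. No difference between KO and WT below therefore has a replicate check, and no test, p-value or error between genotypes could be computed. Every value is from the deposited correlation matrices, in which an entry says how alike the contacts of 1 bin are to those of another, as a correlation coefficient. Depth is unknown, and noise from low depth shrinks such coefficients. The SD of all entries was 0.117 in KO and 0.131 in WT on cas, and 0.0597 in KO and 0.0682 in WT on mus, so the mus matrices carried the weaker pattern in both genotypes.

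The Armcx genes encode armadillo-repeat proteins found only in placental mammals, and Armcx1 and Armcx3 are known as proteins of the outer mitochondrial membrane that act in the transport of mitochondria along axons. Gprasp1 and Gprasp2 encode G protein-coupled receptor associated sorting proteins, which bind the tails of internalised receptors and steer them between recycling and breakdown in lysosomes. Bhlhb9, also called Gprasp3, belongs to the same family and shares the armadillo-like repeats. An X chromosome in a female nucleus is folded into gene-rich A and gene-poor B compartments on the active copy, whereas on the inactive copy these are weak and large megadomains prevail.

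The promoters show how these genes relate to each other, and the sequences below are those that share a start, are near copies or hold the same pair of motifs. RefSeq (GRCm38.p6) held a promoter for 8 of the 9 genes, from 250 bases before to 50 bases after the start listed there, and Armcx3 is named only. The windows of Armcx4, Armcx6 and Bhlhb9 lie inside the annotated gene, away from its outer end, and other starts were not read. The Bhlhb9 window begins at 135885601, in a gene that spans 135841639 to 135891081. The Armcx6 window ends at 134751669, in a minus-strand gene that ends at 134756666. Capitals mark the E-box CACGTG, the ATF/CREB core TGACGT and the GC box GGGCGG, each searched on both strands, so that a GC box on the other strand reads CCGCCC. Armcx1 lies at chrX:134717688-134717987 on the plus strand, and Armcx6 at chrX:134751370-134751669 on the minus strand. The shared window of Gprasp1 and Armcx5 is chrX:135742442-135742741, plus strand. Those of Gprasp2 and Bhlhb9 are chrX:135838784-135839083 and chrX:135885601-135885900, both on the plus strand.
Armcx1: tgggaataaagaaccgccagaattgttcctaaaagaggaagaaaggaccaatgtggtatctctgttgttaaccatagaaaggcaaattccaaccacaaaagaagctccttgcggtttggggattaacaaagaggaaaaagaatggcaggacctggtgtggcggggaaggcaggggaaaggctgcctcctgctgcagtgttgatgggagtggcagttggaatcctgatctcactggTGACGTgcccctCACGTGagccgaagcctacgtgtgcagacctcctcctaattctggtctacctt
Armcx6: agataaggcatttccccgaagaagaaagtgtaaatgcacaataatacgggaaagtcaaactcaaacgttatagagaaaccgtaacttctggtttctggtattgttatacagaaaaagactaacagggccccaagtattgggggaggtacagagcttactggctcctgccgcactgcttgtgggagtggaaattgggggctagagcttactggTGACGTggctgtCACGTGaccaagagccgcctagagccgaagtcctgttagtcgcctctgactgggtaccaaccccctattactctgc
Gprasp1 and Armcx5: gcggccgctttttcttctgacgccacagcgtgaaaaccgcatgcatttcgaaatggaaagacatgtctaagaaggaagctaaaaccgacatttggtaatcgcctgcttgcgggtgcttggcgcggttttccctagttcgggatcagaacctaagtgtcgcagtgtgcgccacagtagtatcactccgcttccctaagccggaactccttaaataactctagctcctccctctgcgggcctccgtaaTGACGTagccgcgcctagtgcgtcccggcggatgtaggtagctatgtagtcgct
Gprasp2: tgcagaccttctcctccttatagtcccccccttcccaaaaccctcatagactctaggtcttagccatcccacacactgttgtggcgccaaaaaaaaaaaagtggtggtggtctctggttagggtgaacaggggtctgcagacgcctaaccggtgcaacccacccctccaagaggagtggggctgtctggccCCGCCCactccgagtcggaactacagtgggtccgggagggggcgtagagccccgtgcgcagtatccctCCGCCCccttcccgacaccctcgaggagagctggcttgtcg
Bhlhb9: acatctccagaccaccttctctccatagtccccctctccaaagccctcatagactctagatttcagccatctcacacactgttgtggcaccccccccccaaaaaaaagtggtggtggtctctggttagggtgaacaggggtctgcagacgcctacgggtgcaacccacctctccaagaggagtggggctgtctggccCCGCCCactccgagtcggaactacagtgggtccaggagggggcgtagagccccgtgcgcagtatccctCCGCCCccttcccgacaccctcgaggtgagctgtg

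Armcx5 and Gprasp1 had the same annotated start, so their windows were identical over 300 of 300 bases, and the 8 promoters made 7 distinct windows. The Gprasp2 and Bhlhb9 windows were near copies, with 268 identical bases in 309 aligned columns (86.7%) and a pair of GC boxes each at like positions (192 and 260 in Gprasp2, 198 and 266 in Bhlhb9, counted from the 5' end). Armcx1 and Armcx6 were next, at 55.0% identity, and in both an ATF/CREB core started 12 bases before an E-box. The other pairs had 43.4% to 49.1% identity. Reads from near-identical stretches are hard to place, and how such reads were treated by the authors is not given in the sources used here.

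An E-box was present in 3 of the 7 windows, those of Armcx1, Armcx6 and Armcx4, against 8.59% of the 1223 promoters on the X chromosome and 7.15% of all 32851 in the table. The ATF/CREB core was present in 3 of the 7 windows as well, those of Armcx1, Armcx6 and the shared Gprasp1 and Armcx5 start, against 7.44% on the X chromosome. GC boxes, found in 33.9% of X promoters, were in 3 of the 7 windows, namely Armcx4, Gprasp2 and Bhlhb9. HindIII, the enzyme that cut the chromatin, has a site (AAGCTT) in 1 of the 7 windows, that of Armcx2, and in 8.67% of X promoters. These are matches of letters and were not tested as binding sites.

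The genes fall into a pair of groups. Armcx4 (134685650-134697775), Armcx1 (134717913-134721917), Armcx6 (134748455-134756666), Armcx3 (134756552-134761457) and Armcx2 (134804142-134809221) lie within 123.571 kb. After a gap of 933.471 kb come Armcx5 (135742692-135747328), Gprasp1 (135742692-135803468), Gprasp2 (135839034-135844730) and Bhlhb9 (135841639-135891081), within 148.389 kb. Armcx5 is thus an Armcx gene that lies in the Gprasp group, with its body overlapping the first part of Gprasp1.

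Genes were placed in bins by their midpoints. At 250 kb, Armcx4 and Armcx1 fell in the bin starting at 134.5 Mb, Armcx6, Armcx3 and Armcx2 in the bin at 134.75 Mb, Armcx5 in the bin at 135.5 Mb, and Gprasp1, Gprasp2 and Bhlhb9 in the bin at 135.75 Mb, called the Gprasp bin. These are 4 of the 588 bins with data. At 100 kb they took 5 of 1461 bins, at 134.6 Mb (Armcx4), 134.7 Mb (Armcx1, Armcx6, Armcx3), 134.8 Mb (Armcx2), 135.7 Mb (Armcx5 and Gprasp1) and 135.8 Mb (Gprasp2 and Bhlhb9). Armcx5 therefore stands in a bin without a Gprasp gene at 250 kb and shares the bin of Gprasp1 at 100 kb. Genes in 1 bin share 1 value, so a bin's value belongs to all its genes, including genes of other families.

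On the cas chromosome the Gprasp bin changed sides between the genotypes while the Armcx4 to Armcx2 bins did not. The compartment score of a bin is its mean correlation with gene-rich A bins minus that with gene-poor B bins at least 2 Mb away, with A and B taken as the 20% of bins at each end of the main axis of variation of the cas matrices (118 bins each). The Gprasp bin scored -0.163 in KO and 0.148 in WT. The bin of Armcx4 and Armcx1 scored 0.224 in KO and 0.205 in WT, and the bin of Armcx6, Armcx3 and Armcx2 scored 0.221 in KO and 0.132 in WT. Both of these were class A bins with a positive score in either genotype. The Armcx5 bin, next to the Gprasp bin, scored -0.107 in KO and -0.0626 in WT, on the B side in both.

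The KO minus WT difference of the Gprasp bin, -0.312, ranked 2 from the lowest of the 588 bins. The bin of Bmp15, an oocyte growth factor gene at 6.25 Mb, had the lowest, -0.398, and that of Shroom4, at 6.5 Mb, followed the Gprasp bin at -0.273. Over all bins the median difference was 0.0230 and the SD 0.0762. The differences of the Armcx bins were 0.0197 at 134.5 Mb, 0.0887 at 134.75 Mb and -0.0443 at 135.5 Mb, which lie at the 48.4th, 89.4th and 21.9th percentile of all bins. Of the 3 Armcx bins, 1 was lower in KO, against 39.1% of all bins, and none was below 0 in KO and above 0 in WT, against 4.25%. The only Gprasp bin at this size was lower by the choice of genes, so nothing is read from its count.

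**Figure D1:**
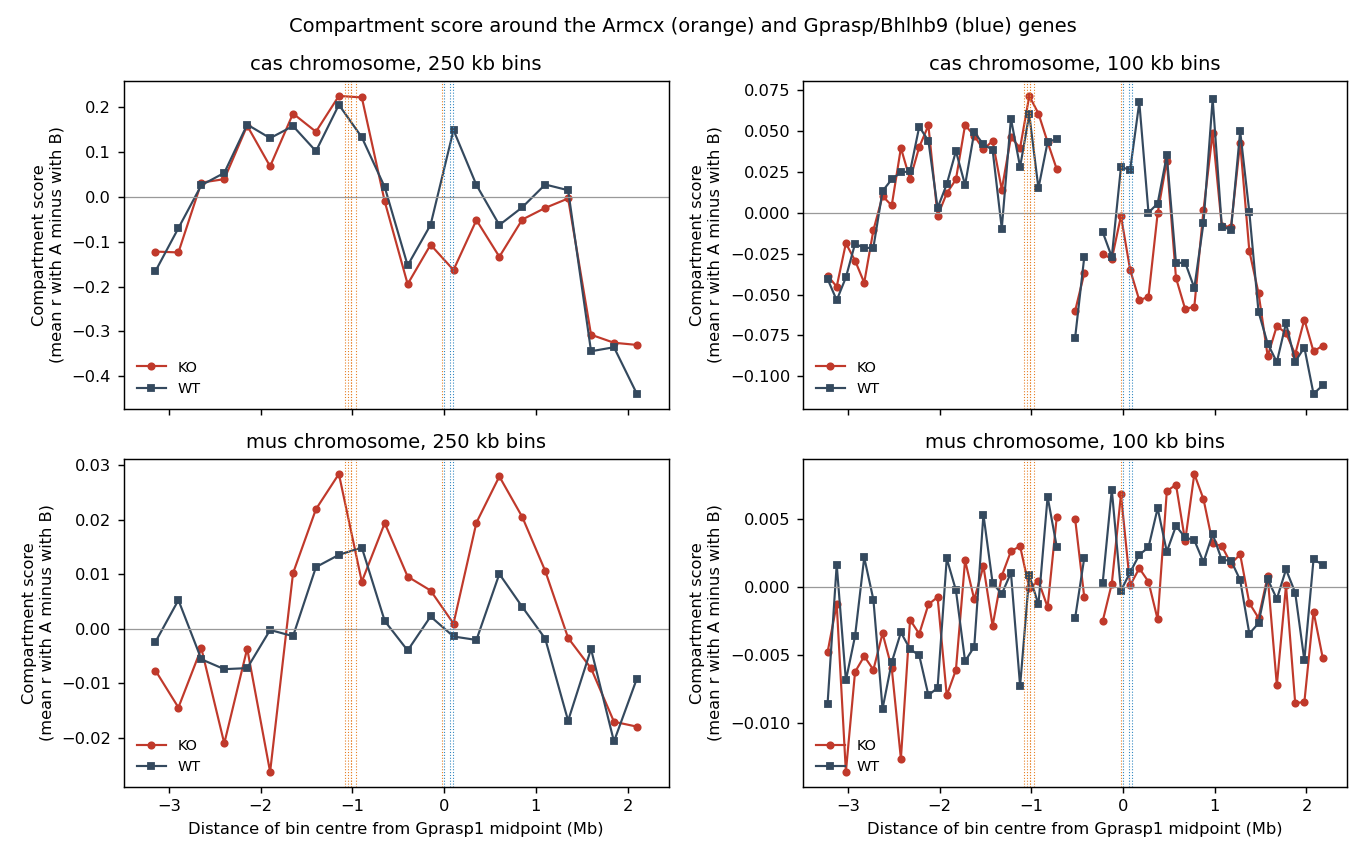
Compartment score of each bin in KO (red circles) and WT (dark squares) against distance from the Gprasp1 midpoint in Mb, for cas (top) and mus (bottom) at 250 kb (left) and 100 kb (right), with dotted lines at the Armcx (orange) and Gprasp and Bhlhb9 (blue) midpoints. On cas at 250 kb the curves part at the Gprasp bin, -0.163 in KO against 0.148 in WT, and both stay above 0 over the Armcx4 to Armcx2 bins; the mus axes span a much smaller range.

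The change of the Gprasp bin was made up of a loss with A bins and a gain with B bins. With the 115 A bins at least 2 Mb away its mean correlation was -0.0558 (SD over bins 0.0459) in KO and 0.0752 (SD 0.0455) in WT, and it was lower in KO with 115 of 115. With 118 B bins the mean was 0.107 (SD 0.0420) in KO and -0.0732 (SD 0.0374) in WT, and it was higher in KO with 118 of 118. These bins share the row of the Gprasp bin and are not replicates, and the counts restate the difference that led to the choice of genes.

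The Armcx4 to Armcx2 bins moved a little the other way. Their mean correlation with A bins was 0.105 in KO and 0.0768 in WT, higher in KO with 80 of 115. With B bins it was -0.118 in KO and -0.0917 in WT, lower in KO with 94 of 118. The Armcx5 bin went with the Gprasp bin in sign but not in size: with A bins it averaged -0.0317 in KO and -0.00735 in WT, and with B bins 0.0753 in KO and 0.0553 in WT.

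**Figure D2:**
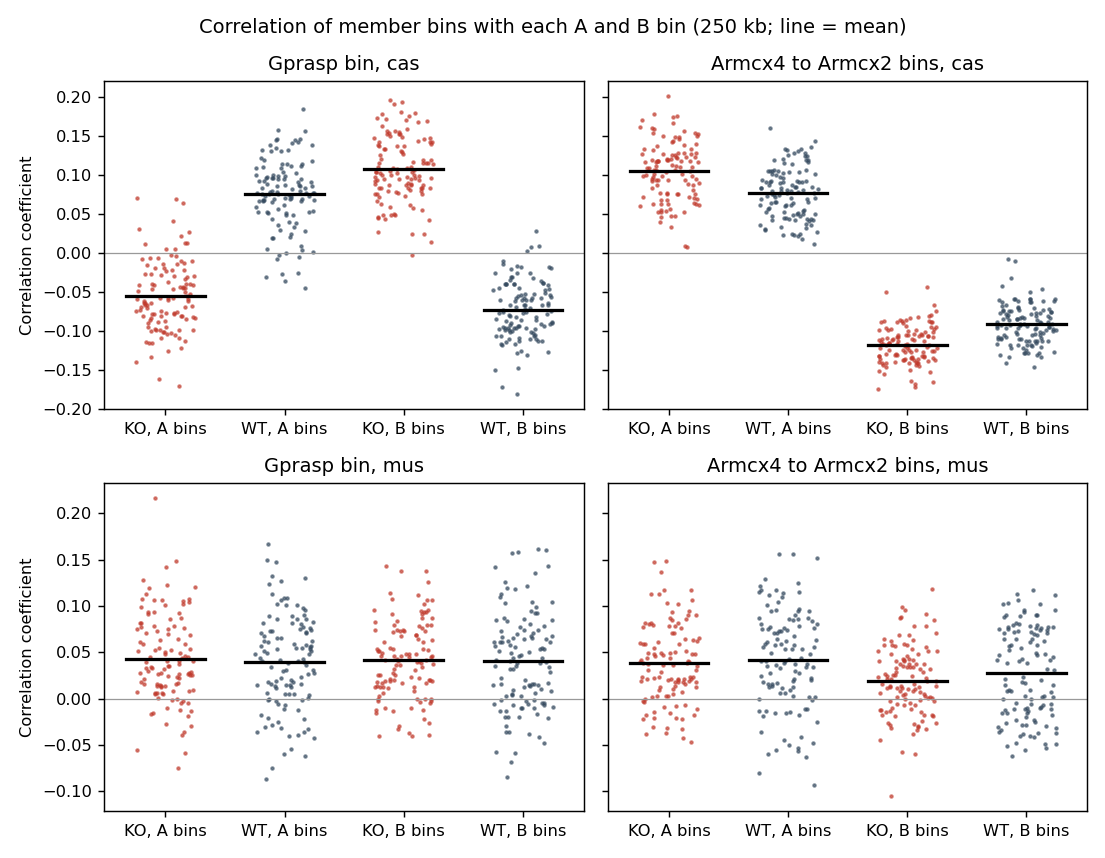
Correlation coefficient of the Gprasp bin (left) and of the Armcx4 to Armcx2 bins (right) with each A and each B bin at 250 kb, on cas (top) and mus (bottom); each point is 1 bin, KO red and WT dark, and the black line is the mean. For the Gprasp bin on cas the A points are lower and the B points higher in KO, with means of -0.0558 against 0.0752 for A and 0.107 against -0.0732 for B.

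The whole contact profile of the Gprasp bin turned over between the genotypes on cas. Over bins at least 2 Mb away, its KO and WT profiles had a Pearson correlation of -0.497, rank 3 from the lowest of 588 bins, whereas the median bin had 0.848. The same correlation was 0.812 for the bin of Armcx4 and Armcx1, 0.692 for the bin of Armcx6, Armcx3 and Armcx2 and 0.507 for the Armcx5 bin. These points share neighbouring bins and depth, so the coefficients are a description. The points also include the A and B bins of the score that led to the choice of genes.

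The Armcx and Gprasp bins had opposite profiles in KO and like ones in WT. Over 568 bins outside the region, the mean profile of the Armcx4 to Armcx2 bins correlated with that of the Gprasp bin at -0.782 in KO and at 0.792 in WT on cas. The Gprasp bin was instead like the Armcx5 bin in KO, with a correlation of 0.696, against -0.108 in WT. The KO profile of the Armcx4 to Armcx2 bins correlated at 0.841 with their own WT profile. On cas the Gprasp profile thus lay on the side of the adjoining Armcx5 bin in KO, and on that of the Armcx4 to Armcx2 bins in WT. These profiles include the A and B bins of the score. The switch therefore restates the change of the chosen bin and is a description.

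**Figure D3:**
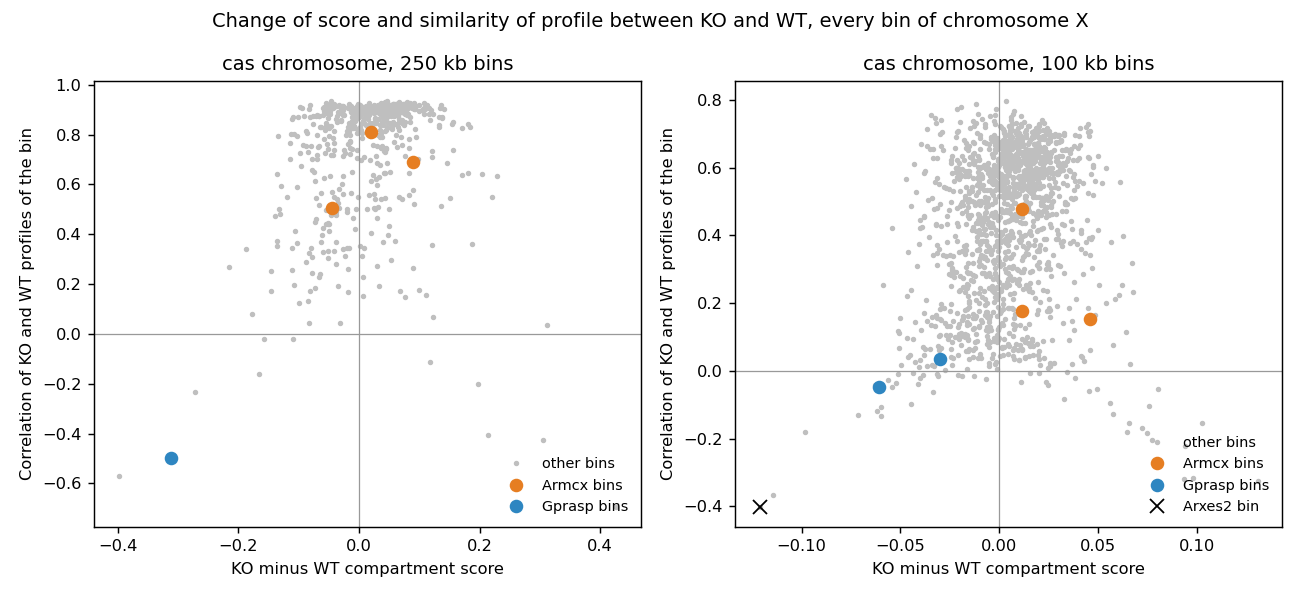
Every bin with data on the cas chromosome, by KO minus WT compartment score (horizontal) and Pearson correlation of its KO and WT profiles (vertical), at 250 kb (left, 588 bins) and 100 kb (right, 1461 bins), with Armcx bins in orange, Gprasp bins in blue and, at 100 kb, the Arxes2 bin as a cross. The Gprasp bin at 250 kb lies at -0.312 and -0.497, and the Arxes2 bin at 100 kb at -0.121 and -0.401, both at the lower left edge of the cloud, while the Armcx bins lie within it.

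Measures that stand in for data quality lay below the median of all bins for the Gprasp bin in both genotypes. The SD of its cas row was 0.0752 in KO and 0.0761 in WT, at the 28.7th and 26.3rd percentile of all bins. Its correlation with adjoining bins on cas was 0.1503 in KO and 0.0725 in WT, at the 41.3rd and 12.2nd percentile. The KO value is the higher of the pair, and the part of either measure in the difference was not tested.

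The 100 kb matrices placed the change more narrowly, and its centre was beside the Gprasp genes rather than on them. The bin of Gprasp2 and Bhlhb9 scored -0.0349 in KO and 0.0261 in WT on cas, a difference of -0.0610 that ranked 7 from the lowest of 1461. The bin of Gprasp1 and Armcx5 scored -0.00202 in KO and 0.0280 in WT, a difference of -0.0300 at rank 100. The lowest difference on the whole chromosome, -0.121, was in the next bin, chrX:135900001-136000000, which scored -0.0535 in KO and 0.0675 in WT. That bin holds Arxes2, an adipocyte-expressed gene derived from a retrotransposed signal peptidase subunit, and it was singled out after its values were seen.

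The change faded on both sides of the Arxes2 bin. The following bin, with Arxes1 and Bex2, scored -0.0513 in KO and 0.0000632 in WT, a difference of -0.0514 at rank 15. Beyond it, the bin of Nxf3, Bex4 and Tceal8 differed by -0.00603, and on the other side the bin of Prame and Tcp11x2 at 135.6 Mb by -0.00131. The run of low values therefore covered 4 bins of 100 kb, from Gprasp1 to Bex2, where the SD over all bins was 0.0229. The promoter windows of Arxes1 and Arxes2 were identical over 300 of 300 bases, so near-copies lie within this run as well.

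Of the 2 Gprasp bins at 100 kb, both were lower in KO on cas, against 41.3% of all bins, and both were below 0 in KO and above 0 in WT, against 3.49%. These bins overlap the 250 kb bin that led to the choice, so the counts stand only as description. None of the 3 Armcx bins was lower in KO. They scored 0.0397, 0.0714 and 0.0606 in KO against 0.0280, 0.0601 and 0.0150 in WT for the bins of Armcx4, of Armcx1, Armcx6 and Armcx3, and of Armcx2. The largest of these differences, 0.0457 in the Armcx2 bin, lay at the 97.0th percentile.

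Profiles at 100 kb were noisier, with a median KO and WT correlation of 0.494 on cas. The Arxes2 bin had -0.401, the lowest of 1461, the Gprasp2 and Bhlhb9 bin -0.0482 at rank 27, and the Gprasp1 and Armcx5 bin 0.0344 at rank 78. Armcx bins had 0.175, 0.478 and 0.154, in the order of the chromosome. The row SD of the Arxes2 bin was 0.0346 in KO and 0.0360 in WT, near the middle of all bins at the 41.5th and 41.6th percentile.

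On the mus chromosome the same bins scored near 0 in both genotypes. The Gprasp bin at 250 kb scored 0.000930 in KO and -0.00144 in WT, a difference of 0.00237 at the 52.0th percentile. The Armcx bins scored 0.0284, 0.00862 and 0.00700 in KO against 0.0135, 0.0149 and 0.00223 in WT, in the order of the chromosome. Of these 3, 1 was lower in KO, against 47.3% of all bins, and 0 were below 0 in KO and above 0 in WT, against 17.9%. At 100 kb, 1 of 3 Armcx bins and 1 of 2 Gprasp bins were lower, against 50.8%, and 1 of 3 and 0 of 2 were below 0 in KO and above 0 in WT, against 16.7%.

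The mus differences were small beside the spread over all bins, with an SD of 0.0218 at 250 kb. The largest among the genes' bins was 0.0148, in the bin of Armcx4 and Armcx1. The mean correlation of the Gprasp bin with A bins was 0.0432 in KO and 0.0396 in WT, and with B bins 0.0422 in KO and 0.0410 in WT, so that the mus profile did not separate the classes in either genotype. Since classes were set on the cas matrices, a mus score near 0 says only that this division is weak there.

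KO and WT profiles on mus had a median correlation of 0.491, below that on cas. The Gprasp bin had 0.225, the bin of Armcx4 and Armcx1 0.435, the bin of Armcx6, Armcx3 and Armcx2 0.156 and the Armcx5 bin 0.196. The profiles of the Armcx4 to Armcx2 bins and the Gprasp bin correlated at 0.00561 in KO and 0.415 in WT. At 100 kb the same pair had 0.00281 in KO and 0.09999 in WT.

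The Armcx and Gprasp bins were less correlated with each other in KO on both chromosomes. At 100 kb their mean correlation over 6 bin pairs was 0.00128 in KO and 0.0229 in WT on cas, and 0.00443 in KO and 0.0324 in WT on mus. Among 1347 windows of the same shape along the chromosome, the cas values lay at the 22.5th percentile in KO and the 40.3rd in WT. The mus values lay at the 3.53rd percentile in KO and the 35.7th in WT. At 250 kb, over the 2 pairs of the Armcx4 to Armcx2 bins with the Gprasp bin, the mean was -0.0549 in KO and 0.117 in WT on cas. On mus it was 0.0507 in KO and 0.110 in WT. The median of windows of the same shape on mus was also lower in KO, at 0.112 against 0.135 in WT, a smaller fall. The Armcx4 to Armcx2 bins were lower in KO with each flank on mus at 250 kb as well. The differences were -0.0252 with the left flank, -0.0358 with the right flank up to the last gene and -0.0254 with the gene-free stretch. A lower KO value on mus at 250 kb was thus not particular to the Gprasp bin. The lower KO value of Armcx with Gprasp bins was seen on both chromosomes and at both bin sizes. The cas values come from the bin that led to the choice of genes or from bins overlapping it. They are therefore a description and lend the mus direction no support. With the Armcx5 bin counted among the Armcx bins at 250 kb, the KO minus WT differences were -0.0882 on cas and -0.0158 on mus. These were not compared with windows of their own shape, so the small mus value is not set apart from the general fall.

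Correlations within each group were also read. At 100 kb the 3 Armcx bins correlated with each other at 0.0448 in KO and 0.0150 in WT on cas, and at 0.00974 in KO and 0.0150 in WT on mus. The pair of Gprasp bins correlated at 0.0686 in KO and 0.0390 in WT on cas, and at 0.0261 in KO and 0.0365 in WT on mus. Among windows of the same shape, the Armcx values were low in most matrices, at the 26.7th percentile in KO and the 5.46th in WT on cas, and at the 8.27th in KO and the 8.63rd in WT on mus. At 100 kb the values within the groups were thus higher in KO on cas and lower in KO on mus. The mus direction did not hold for the Armcx bins at 250 kb, where the 2 bins of Armcx4 to Armcx2 correlated at 0.138 in KO and 0.101 in WT on cas, and at 0.104 in KO and 0.0890 in WT on mus.

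**Figure D4:**
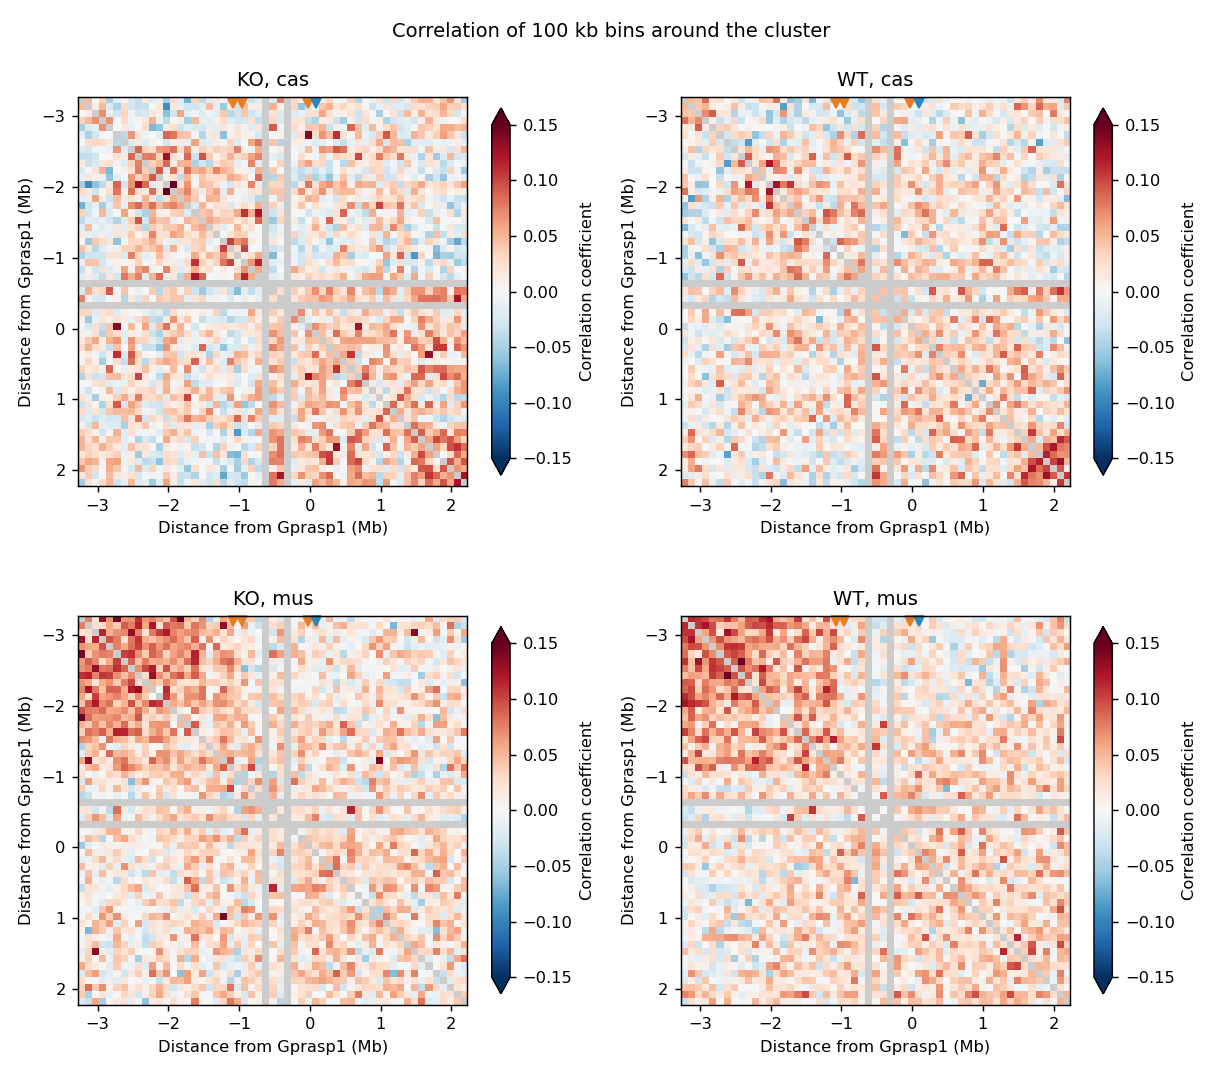
Correlation coefficients between 100 kb bins from 132.5 to 138 Mb in KO (left) and WT (right), on cas (top) and mus (bottom), with axes in Mb from the Gprasp1 midpoint, bins without data in grey, and triangles at Armcx4 and Armcx2, Armcx5 (orange) and Bhlhb9 (blue). On cas the stretch just right of 0, holding Gprasp2, Bhlhb9 and Arxes2, is redder with the gene-free right end in KO and paler in WT. On mus the mean correlation of the Armcx bins with the flank on their left was 0.0304 in KO and 0.0299 in WT.

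Near the genes, the gain of the Gprasp bin on cas was with the gene-free stretch on its right. With the 3 bins of 250 kb from 137.25 to 138 Mb, which hold no protein-coding gene, the Gprasp bin had a mean correlation of 0.139 in KO and -0.0448 in WT on cas, and 0.117 in KO and 0.109 in WT on mus. With the 5 bins between, which hold most of the Bex and Tceal genes, it had 0.145 in KO and 0.109 in WT on cas. With the 8 bins left of the Armcx genes it had 0.0471 in KO and 0.0602 in WT. The largest local difference of the Gprasp bin was thus with the gene-free end of the region. The bin at 137.75 Mb in that stretch is a class B bin of the score. The cas gain therefore restates in part the difference that led to the choice of genes.

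The 100 kb bins gave the same order of differences, and those of Gprasp and Arxes2 overlap the chosen 250 kb bin. The 2 Gprasp bins had a mean correlation with the gene-free stretch of 0.0297 in KO and -0.000443 in WT on cas, and the Arxes2 bin 0.0519 in KO and -0.0231 in WT. The Armcx bins had -0.0213 in KO and -0.00269 in WT with the same stretch. On mus the Arxes2 bin had 0.0284 in KO and 0.0318 in WT.

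The boundary score, the mean correlation among bins up to 1 Mb to either side less that between the sides, was read at 100 kb and is not matched on distance. Between the groups, at 135.1 Mb, it was 0.0380 in KO and 0.0122 in WT on cas, at the 81.7th and 49.4th percentile of all bins with a boundary score. The bin at 135.1 Mb and that at 135.4 Mb have no data and did not enter the windows. A boundary score is set by the bins to either side, so a bin without data can still have a score. At the Gprasp2 and Bhlhb9 bin the score was low in both genotypes, 0.00408 in KO and -0.000535 in WT, and the WT value was the lowest of the region on cas.

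On mus the Armcx genes lay at the strongest boundary of the region in WT. The Armcx2 bin scored 0.00764 in KO and 0.0193 in WT, and the WT value was the highest of the region and at the 96.8th percentile of the chromosome. The neighbouring bin of Armcx1, Armcx6 and Armcx3 scored 0.00744 in KO and 0.0176 in WT. In KO the highest score of the region on mus, 0.0174, was in the bin of Trmt2b at 134.2 Mb, against 0.0120 in WT. The place of the KO maximum changed with bin size. At 250 kb it was at 135.25 Mb, between the groups, at 0.0525 in KO and -0.0251 in WT. The WT maximum at 250 kb stayed in the bin of Armcx6, Armcx3 and Armcx2, at 0.0511. The bins were picked out as the highest of each matrix, so their order is a description, and the size of the difference at the Armcx2 bin moved with the window, as given further on.

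Over the length of the chromosome, the Gprasp bin on cas gained correlation with segments rich in B bins. Among 17 segments of 10 Mb, its mean correlation was higher in KO with 11 and lower with 6. The greatest gain was with the segment from 80 to 90 Mb, where 33 of 40 bins are class B, at 0.107 in KO and -0.0634 in WT. The segments from 110 to 120 Mb (0.0691 in KO, -0.0987 in WT) and from 120 to 130 Mb (0.0826 in KO, -0.0684 in WT) came next. A gain was also seen with the segment from 40 to 50 Mb, which has 5 A and 3 B bins (0.0270 in KO, -0.05935 in WT). The greatest loss was with the segment from 160 to 170 Mb, with 15 A bins and no B bin, at 0.00912 in KO and 0.0446 in WT. For the Armcx4 to Armcx2 bins, by contrast, 14 segments were lower and 3 higher in KO, with differences between -0.0370 and 0.0177.

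**Figure D5:**
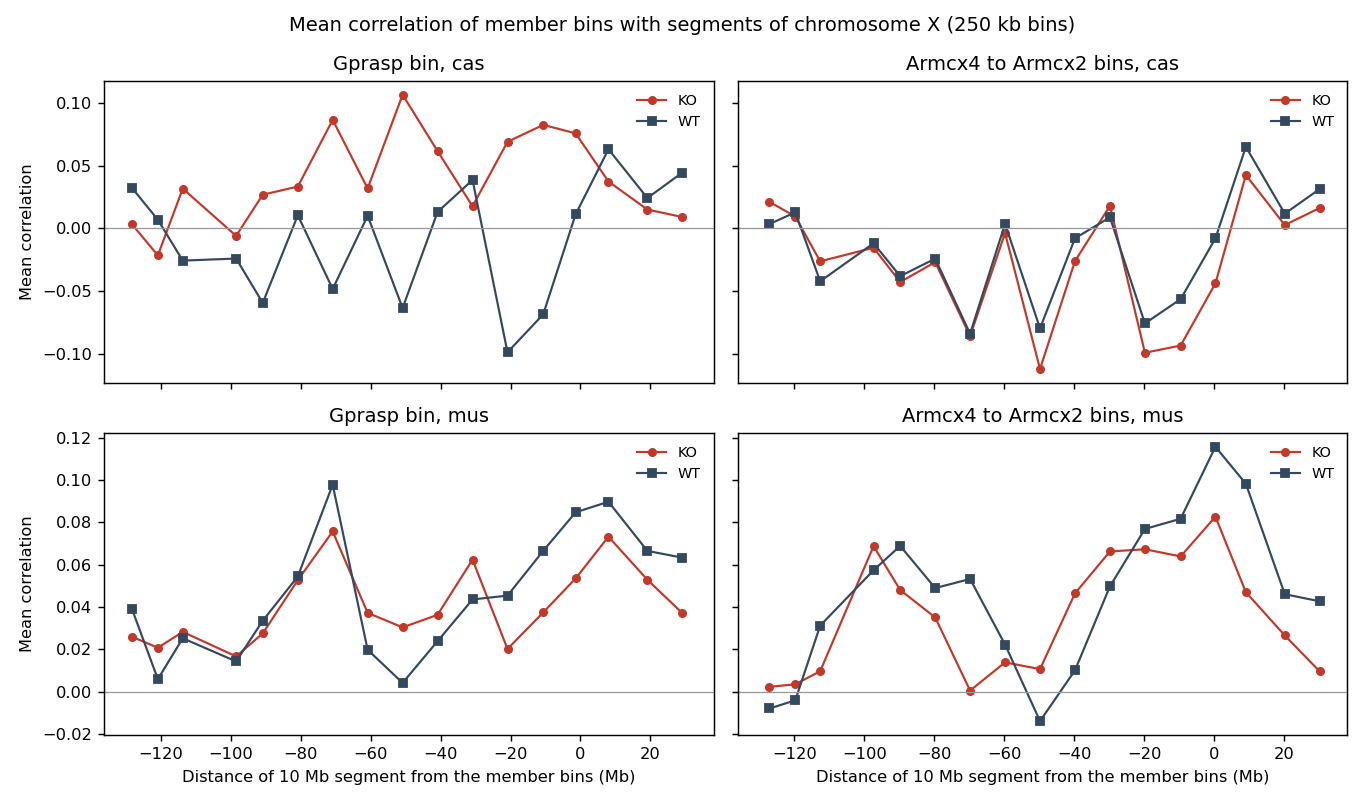
Mean correlation of the Gprasp bin (left) and the Armcx4 to Armcx2 bins (right) with segments of 10 Mb along chromosome X, by distance of the segment from the genes' bins in Mb, in KO (red circles) and WT (dark squares), on cas (top) and mus (bottom). The Gprasp bin on cas has the greatest gap at the segment from 80 to 90 Mb, 0.107 in KO against -0.0634 in WT, while the differences of the Armcx4 to Armcx2 bins on cas lie between -0.0370 and 0.0177.

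Single partners were read as well, and they restate the cas difference that led to the choice of genes. Bins whose correlation with the Gprasp bin on cas was among the most reduced held genes. They include the bin of Zfp449, Ints6l and neighbours at 56.25 Mb (-0.0799 in KO, 0.179 in WT) and that of Tmsb4x, which encodes the actin-binding peptide thymosin beta 4, at 167 Mb (-0.1003 in KO, 0.142 in WT). The 3 most increased were at 88.5 Mb (0.153 in KO, -0.148 in WT), 64 Mb (0.194 in KO, -0.107 in WT) and 158.75 Mb (0.247 in KO, -0.0494 in WT). Of these, only the bin at 64 Mb held annotated protein-coding genes, Gm6760 and 3830417A13Rik. The bin at 158.75 Mb was in neither class, with a WT cas score of -0.256, and lies in a segment without class B bins.

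The bins whose WT cas profile was most like that of the Gprasp1 bin were also read. Among 566 bins outside the region, the most alike in WT were those of Pak3, a kinase of neuronal spines, at 143.5 Mb (Pearson correlation 0.819 over 558 bins), of Il13ra2, a decoy receptor for interleukin 13, at 147.25 Mb (0.810) and at 105.75 Mb of Magt1, Fgf16 and the chromatin remodeller Atrx (0.810). In KO the same bins correlated with the Gprasp1 bin at -0.655, -0.713 and -0.697. Their own cas scores stayed on the A side, at 0.259, 0.313 and 0.262 in KO against 0.286, 0.357 and 0.296 in WT. The likeness is a description over bins that share depth and base composition. The Gprasp1 bin was chosen for its fall on cas, and 4.25% of all bins were above 0 in WT and below 0 in KO. That these bins kept their side is therefore no result about them, and the negative KO correlations restate the change of the chosen bin.

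Neighbouring families were counted in full. Of the 12 listed Bex and Tceal genes, brain-expressed X-linked genes and relatives of a transcription elongation factor, 11 lie in the region, in 4 bins of 250 kb. All 4 bins were lower in KO on cas, where 39.1% of all bins were, with a median difference of -0.0513 against 0.0230 over all bins. On mus 0 of 4 were lower, where 47.3% of all bins were, with a median of 0.0179 against 0.00158. At 100 kb, 4 of 6 bins were lower on cas, against 41.3% of all bins, and 3 of 6 on mus, against 50.8%. The bin after the Gprasp bin, with Bex2, Bex4, Bex1, Tceal8, Tceal5, Tceal7, Tceal9, Nxf3 and Arxes1, scored -0.0521 in KO and 0.0260 in WT on cas, the lowest difference of the flanks at -0.0780.

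Of 36 other listed neighbours, 31 lie in the region, in 10 bins, of which 6 were lower in KO on cas, against 39.1% of all bins, and 2 on mus, against 47.3%. The bin before the Armcx genes, with Tmem35a, Cenpi, Drp2 and Taf7l, scored 0.145 in KO and 0.101 in WT on cas. Timm8a1, Btk, Rpl36a, Gla and Hnrnph2 share the bin of Armcx4 and Armcx1 and its values. After the Armcx genes, the bin of Tceal6 scored -0.0106 in KO and 0.0214 in WT, and the bin of Pramel and Pramel3 -0.195 in KO and -0.153 in WT. The highest difference of the flanks, 0.109, was in the gene-free bin at 137.75 Mb, which scored -0.330 in KO and -0.439 in WT.

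Over the whole region with its flanks, 13 of 22 bins were lower in KO on cas, where the chromosome had 39.1%, and 5 of 22 were below 0 in KO and above 0 in WT, where it had 4.25%. Both counts include the Gprasp bin, which led to the choice of genes, so they are a description. The other bins that changed sign had WT scores near 0, from 0.0144 to 0.0271. The flank left of the Armcx genes had 4 of 8 lower and the flank right of the Gprasp bin 5 of 8. Without the Gprasp bin, no bin of the region was lower by 0.1 or more, a size that 5.78% of all bins reached, and 1 of 22 was higher by 0.1 or more, against 7.82%.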

How the data were processed

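Hi-C of 4 samples (2 KO, 2 WT) was deposited as 8 matrices of chromosome X on mm10. Each deposited value is a score, a correlation coefficient that compares the contacts of 1 bin with those of another, made by the authors after replicates were combined and alleles split, per the file headers. Cells were fixed with 2% formaldehyde and cut with HindIII, per the labels' protocols. HOMER, Juicer, Bowtie2, cutadapt and mm10 are named per the submitters' processing notes. For contact normalization and allele assignment, a rule is not given in the sources used here, and depth is unknown.

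From these values, compartment scores, boundary scores and profile correlations were computed with Python 3.11.15, numpy 2.4.6, pandas 2.3.3, matplotlib 3.10.9 and Biopython 1.88, with reference bins at least 2 Mb away. Bins without data in any matrix of a bin size were left out, except that they could carry a boundary score from their neighbours. Functions were tested on simulated matrices. Genes were placed through RefSeq (GRCm38.p6), whose chromosome X coordinates are those of mm10. Named genes are the 9 members, listed neighbours in bins next to them or of largest and smallest difference in the flanks, the 3 bins most like that of Gprasp1 in WT cas, and the 3 highest and 3 lowest partners of the Gprasp bin, of which 1 is not reported here. Members and lists were chosen with earlier results of these data known. Alternatives are given in the closing section.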

Additional observations from a re-analysis of the deposited data

Results flagged for a closer look

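The KO minus WT compartment score of the Gprasp bin had opposite signs on the chromosomes, -0.312 on cas and 0.00237 on mus. The mus value is small beside the SD of 0.0218 over all bins, lies near their median of 0.00158 and turned its sign under 3 of 11 alternatives, so an opposite direction is not shown. The difference between the chromosomes was not tested, since each is a single combined matrix, and the cas value led to the choice of these genes.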

How the results depend on the processing

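Alternatives changed 1 choice at a time, and values within 1.5 times of the reported one in the same direction were taken as alike. No paired analysis was possible because the replicates were combined before deposit, and for the same reason no replicate could be left out. The Gprasp difference on cas (-0.312) kept its direction under all 11 alternatives, 7 of them alike. It was -0.0455 in 100 kb bins, -2.53 after division by the SD of entries, -0.174 with classes by gene number and -0.178 with genes placed by start, which adds the Armcx5 bin. On mus (0.00237) 3 of 11 turned the sign, to -0.00975 with 10% classes, -0.00360 with bins right of Dxz4 and -0.00105 without the weakest bins. The others that moved on mus were 0.0366 (SD), 0.00410 (distance mean subtracted), 0.0137 (gene number), 0.0159 (left of Dxz4), 0.00357 (start) and 0.00690 (classes from WT cas alone). The Armcx mean on cas (0.0214) stayed positive under all 12, with 0.267 (SD), 0.0129 (gene number), 0.0542 (start) and 0.0542 (Armcx5 left out). On mus (0.00445) it was -0.0113 with bins right of Dxz4, the 1 turned sign of 12, and 0.0958 (SD), 0.0114 (gene number), 0.00884 (10% classes), 0.0378 (left of Dxz4) and 0.00989 (classes from WT cas alone). The Armcx with Gprasp correlation stayed lower in KO under all 5 alternatives on each chromosome. Of these, placing genes by start and leaving out Armcx5 changed no bin at 100 kb and returned the reported value, so they check nothing. At 250 kb the Armcx5 bin holds no Gprasp gene and so counts among the Armcx bins, which gives 3 bin pairs. The difference was -0.0882 (250 kb) and -0.514 (SD) on cas, where -0.0216 is reported, and -0.0158 (250 kb) and -0.905 (SD) on mus, where -0.0280 is reported. The boundary difference of the Armcx2 bin on mus (-0.0116) was -0.00373 with windows of 500 kb, -0.00529 with 2 Mb and -0.0169 in 250 kb bins. Values divided by the SD are on another scale. Otherwise the cause was not tested. In 100 kb bins the differences on cas had a smaller spread over all bins, with an SD of 0.0229 against 0.0762 in 250 kb bins. Classes from WT cas alone, the Armcx5 bin left out of the score and the boundary settings were chosen after seeing the data. Depth is unknown and limits all values.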
